A study of Mus musculus with 36 samples.

Results

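Interferon-stimulated genes are the transcripts that cells switch on when interferon reaches them. A list of 39 such genes was followed through 36 RNA-seq libraries of subcutaneous mouse tumours, and 37 of the 39 were analysed among 37417 gene rows. Gbp5 and Gbp6 were not analysed here. The members were grouped by role. The IFN-gamma type group held 9 analysed members (the guanylate-binding proteins Gbp2, Gbp3, Gbp4 and Gbp7, the immunity-related GTPases Irgm1, Irgm2, Igtp and Iigp1, and Ido1). The type I type group held 9 (Ifit1, Ifit2, Ifit3, Oas2, Oas3, Oasl1, Oasl2, Mx1 and Mx2). A further 6 were regulators of the response, 4 were sensors of foreign nucleic acid and 9 were other effectors.

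As background, interferon gamma is made mainly by activated T cells and natural killer cells, binds the receptor chains Ifngr1 and Ifngr2 and signals through the kinases Jak1 and Jak2 to the gamma-activated site (GAS) of its target genes. Type I interferons such as interferon beta bind Ifnar1 and Ifnar2 and activate a complex that holds Stat2 and Irf9 and binds the interferon-stimulated response element (ISRE). Many genes answer to both signals, and Irf1, itself induced by interferon gamma, also binds ISRE-like sequence. In tumours, interferon gamma raises antigen presentation and also PD-L1 (Cd274) and Ido1, which restrain T cells.

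The promoters show both kinds of element. RefSeq promoter windows (GRCm38.p6, 250 bases before to 50 after a start) were matched for 27 of the 37 analysed members. The ISRE core, GAAA and GAAA with any 2 bases between them, searched on both strands, was in a window of 16 of these 27 genes (59.3%) and of 3.99% of all 27025 genes with a window. The GAS pattern TTCNNNGAA, which reads alike on both strands, was in 8 of 27 (29.6%) and in 9.55% of all genes. All 6 IFN-gamma type genes with a window held the ISRE core, and 3 of them (Gbp7, Irgm2 and Igtp) also held the GAS pattern. Among the 6 type I type genes with a window, 3 held the ISRE core and 1, Ifit2, the GAS pattern. A match is a description of the letters and not a shown binding site.

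Below are the 130 bases before the start of 6 members, shown because they carry the elements of the groups compared here, with each match in capitals. Irf1 (chr11:53769884-53770013, + strand) and Gbp7 (chr3:142530206-142530335, + strand) stand for the IFN-gamma side. Igtp (chr11:58199426-58199555, + strand) and its neighbour Irgm2 (chr11:58214847-58214976, + strand) carry both elements side by side. Ifit1 (chr19:34640759-34640888, + strand) and Isg15 (chr4:156200819-156200948, - strand) carry repeated ISRE cores.
Irf1: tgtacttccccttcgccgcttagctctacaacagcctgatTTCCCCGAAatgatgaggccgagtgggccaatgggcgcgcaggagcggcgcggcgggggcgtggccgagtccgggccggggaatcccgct
Gbp7: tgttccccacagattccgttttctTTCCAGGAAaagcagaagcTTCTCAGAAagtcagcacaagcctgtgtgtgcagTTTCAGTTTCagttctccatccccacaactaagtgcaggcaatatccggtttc
Igtp: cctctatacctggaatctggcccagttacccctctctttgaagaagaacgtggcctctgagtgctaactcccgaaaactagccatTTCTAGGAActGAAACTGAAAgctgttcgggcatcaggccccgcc
Irgm2: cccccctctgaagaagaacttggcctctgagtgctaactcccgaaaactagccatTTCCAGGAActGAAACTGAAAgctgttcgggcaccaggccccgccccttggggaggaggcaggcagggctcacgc
Ifit1: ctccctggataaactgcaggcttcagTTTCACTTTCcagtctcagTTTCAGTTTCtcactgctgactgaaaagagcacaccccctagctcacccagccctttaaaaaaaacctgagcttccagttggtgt
Isg15: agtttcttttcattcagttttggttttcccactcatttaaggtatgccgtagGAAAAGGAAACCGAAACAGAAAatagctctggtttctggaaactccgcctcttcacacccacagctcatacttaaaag

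The libraries were labelled MC38 (colon carcinoma), CT26 (colon carcinoma) and PancO2 (pancreatic adenocarcinoma), grown under the skin of wild-type mice 12 weeks old. The labelled strain was C57BL/6J for MC38 and PancO2 and BALB/c for CT26. Mice of each model received IgG, anti-CTLA4 or anti-PD-1 at 10 mg/kg, with 4 libraries in each of the 9 labelled groups. Whole tumours were taken at the end stage, so a value mixes tumour, stroma and infiltrate, and fewer cells of a type and less RNA per cell cannot be told apart. Totals ran from 7883106 to 41751023 counts over gene rows, with 3 counts as the limit for a count of 0. For 16 of 36 libraries H2-Ea-ps, which BALB/c mice transcribe and C57BL/6 mice do not, went against the strain of the labelled model. Libraries are named by label only for this reason. Values are therefore described in 3 classes of 12 libraries cut by transcript level in CPM, a gene's count scaled to a common library total: H2-Ea-expressing (H2-Ea-ps above 10 CPM), Cp-high (ceruloplasmin, Cp, above 1000 CPM) and neither. Libraries of the last class, called below the class with neither marker, still held 255 to 611 CPM of Cp. Each class held libraries of all 3 labelled models. Because the classes were cut from the same libraries, levels by class carry no test. The library labelled PancO2 anti-PD-1 71 stood apart, with 86.5% of its reads in the summary lines and a plasmacytoid dendritic cell marker sum (Siglech and Ccr9) of 74.8 CPM against 1.27 to 3.38 CPM in the other 11 H2-Ea-expressing libraries. It was left out of every relation to Ifng. Its Bst2, which marks plasmacytoid dendritic cells in mice but is induced by interferon in many cells, was 25.1 CPM, the lowest of the 36 libraries.

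Ifng itself was a rare transcript in every class. It ran from 0.299 to 1.99 CPM (median 1.14, 4 to 56 counts) in the H2-Ea-expressing class, from 0.219 to 4.07 CPM (median 1.76, 4 to 170 counts) in the Cp-high class and from 0 to 2.60 CPM (median 0.547, 0 to 80 counts) in the class with neither marker. The 3 ranges overlapped.

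Of the 37 members, 30 had their highest class median in the Cp-high class, against 36% of 16323 genes tested. The remaining 7 (Gbp4, Gbp7, Ido1, Oas2, Oas3, Oasl1 and Ifi44) were highest in the H2-Ea-expressing class, against 29.3% of genes. In the class with neither marker 0 members had the highest median, against 34.8% of genes.

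**Figure D1:**
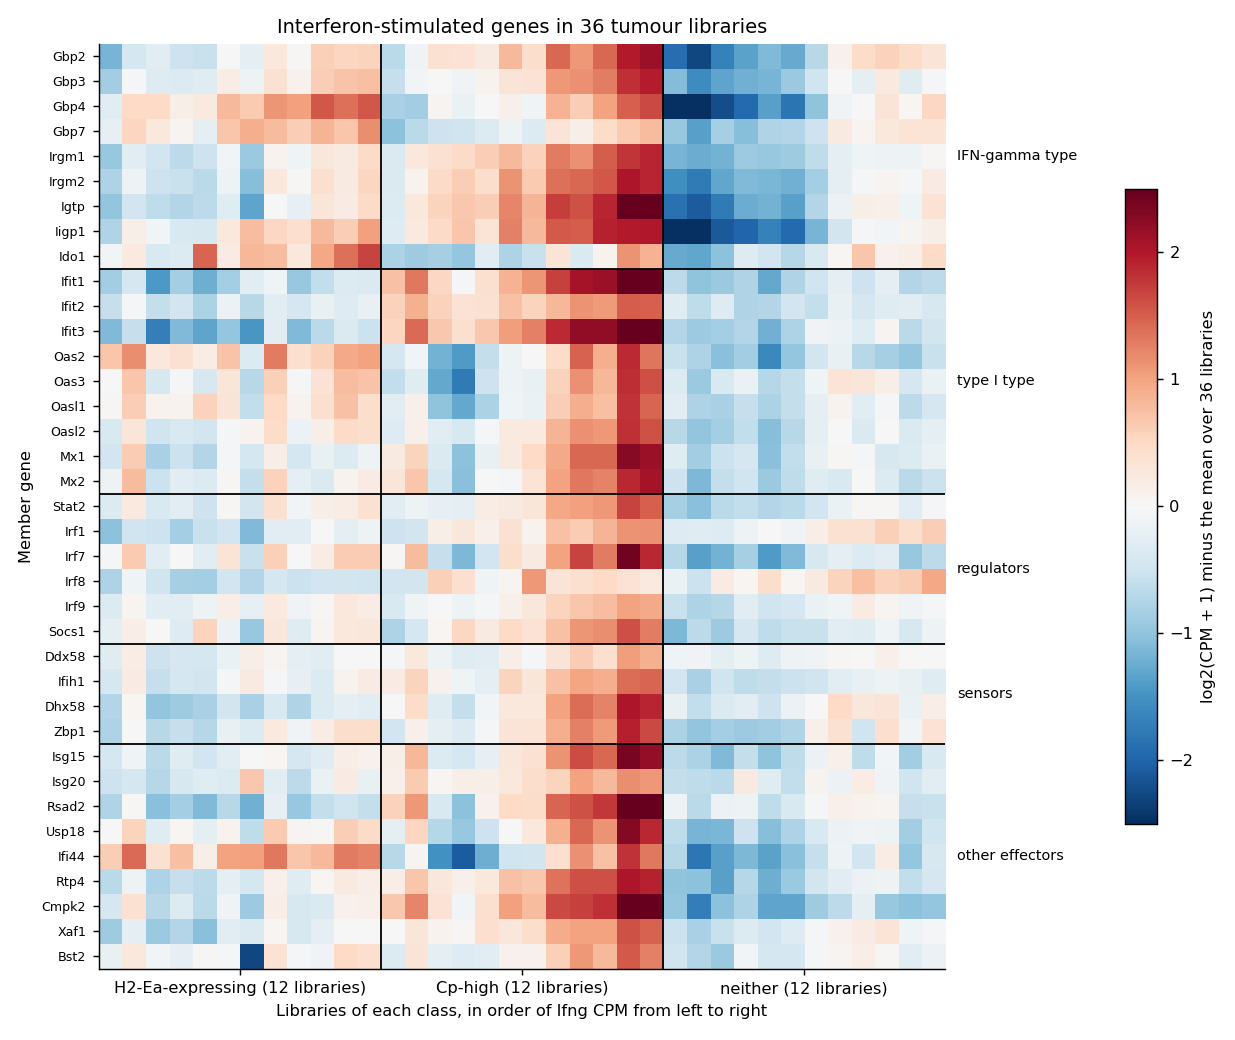
Each row is 1 of 37 members and each column 1 of 36 libraries, coloured by log2(CPM + 1) minus the member's mean over the 36 libraries. Columns are ordered by Ifng CPM within each class. The IFN-gamma type rows shift towards red (higher values) from left to right in all 3 classes, and the type I type rows do so in the Cp-high class.

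The Ifit genes encode proteins that bind viral RNA. Ifit3 ran from 55.8 to 335 CPM in the Cp-high class, from 12.2 to 34.2 CPM in the H2-Ea-expressing class and from 17.6 to 43.7 CPM in the class with neither marker. Ifit2 ran from 140 to 309 CPM in the Cp-high class, above 62.2 to 106 CPM and 64.2 to 95.7 CPM in the other two. Ifit1 ran from 79.4 to 631 CPM there and from 29.5 to 75.3 CPM and 32.7 to 69.1 CPM in the other two. These 3 were the members whose Cp-high range lay above both other classes, 3 of 37, against 7.56% of all genes, a share near that background. With TMM-scaled library sizes the count was 2, without Ifit1, against 6.91% of genes. Rtp4, a transporter protein of the interferon response, and Cmpk2, a mitochondrial nucleotide kinase, were also higher in every Cp-high library than in every library with neither marker, which makes 5 of 37 members against 13.7% of genes, again near the background. No member lay above both other classes in the H2-Ea-expressing class (0 of 37, against 4.75% of genes) or in the class with neither marker (0 of 37, against 5.24%). The H2-Ea-expressing range lay above that of the class with neither marker for 0 of 37, against 8.69%, and for 1 (Ifi44) with TMM-scaled library sizes or 1 (Oas2) without PancO2 anti-PD-1 71.

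The guanylate-binding and IRG proteins attack the vacuoles of intracellular pathogens. Gbp2 ran from 154 to 519 CPM (median 316) in the H2-Ea-expressing class, from 214 to 1513 CPM (median 533) in the Cp-high class and from 70.6 to 515 CPM (median 185) in the class with neither marker. Irgm1, a regulator of the IRG proteins, ran from 80.9 to 221 CPM (median 137), from 122 to 596 CPM (median 260) and from 66.5 to 162 CPM (median 92.9) in the same order. Both genes overlapped between all classes. Gbp7 had its highest median in the H2-Ea-expressing class (351 CPM, range 192 to 498), against 191 CPM (109 to 386) in the Cp-high class and 145 CPM (86.0 to 284) in the remaining class. Ido1, which degrades tryptophan, was low everywhere. Its range was 1.08 to 7.64 CPM in the H2-Ea-expressing class, 0.380 to 4.88 CPM in the Cp-high class and 0.0912 to 3.37 CPM in the class with neither marker. Per kilobase of exon, Gbp2 and Bst2 had the highest medians of the 37 members in each class and Ido1 and Mx2 the lowest. In the Cp-high class Gbp2 had a median level of 212 CPM per kb and Ido1 0.536 CPM per kb. The gene bodies of Irgm2 and Igtp overlap on the same strand, as does Gbp4 with Gbp8 and Gbp9, and the Gbp, Ifit and Oas genes have close paralogs, so reads may be split or lost between these copies and their levels are uncertain.

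The highest Cp-high library exceeded the lowest by a median of 9.29-fold over the type I type members, against 2.81-fold in the H2-Ea-expressing class (2.30-fold without PancO2 anti-PD-1 71) and 2.21-fold in the class with neither marker. For the IFN-gamma type members the same ratio was 5.83-fold, 3.37-fold (3.11-fold without that library) and 5.58-fold. In the Cp-high class the library labelled MC38 anti-CTLA4 8 was highest for 8 of 9 type I type members and for all 9 other effectors, and the library labelled PancO2 anti-PD-1 70 for 7 of 9 IFN-gamma type members. The library labelled PancO2 anti-CTLA4 58 was lowest for all 9 type I type members, whereas the library labelled CT26 IgG 28 was lowest for 7 of 9 IFN-gamma type members. Without MC38 anti-CTLA4 8 the median spread of the type I type members was 7.26-fold.

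To ask which members followed Ifng, each class was fitted separately with edgeR (quasi-likelihood) with log2 Ifng as the only covariate. The slope is the log2 change of the member for a change of 1 in log2 Ifng. In the H2-Ea-expressing class 8 of 37 members rose with Ifng, against 0.294% of 16302 genes. In the Cp-high class 30 of 37 rose, against 6.27% of 17142 genes. In the class with neither marker 16 of 37 rose, against 1.99% of 16346 genes. No member fell in any class. In the H2-Ea-expressing class the count was 0 without the 2 libraries farthest from the median of Ifng (MC38 anti-PD-1 16 and CT26 IgG 27), 5 without MC38 anti-PD-1 16 alone and 3 with PancO2 anti-PD-1 71 kept. In the Cp-high class it was 18 without MC38 anti-CTLA4 8 and 18 without PancO2 anti-PD-1 70. The shares of all genes called in these altered fits are not reported here, so their counts cannot be set against a background.

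The IFN-gamma type members rose in all 3 classes. In edgeR's test 7 of 9 passed in the H2-Ea-expressing class (Gbp7 and Ido1 did not), 9 of 9 in the Cp-high class and 9 of 9 in the class with neither marker. The Gbp2 slope was 0.71 ± 0.08 (SE, adjusted p = 0.00191), 0.74 ± 0.08 (adjusted p = 0.000313) and 0.63 ± 0.07 (adjusted p = 0.000255) in that order. Irgm1 had slopes of 0.55 ± 0.07, 0.60 ± 0.07 and 0.30 ± 0.03, with adjusted p of 0.00421, 0.000266 and 0.0002. Gbp7 had a slope of 0.47 ± 0.10 (adjusted p = 0.105) in the H2-Ea-expressing class and passed in the others with 0.50 ± 0.06 and 0.36 ± 0.05. Ido1 had the steepest slopes of these 4, 0.96 ± 0.29, 0.97 ± 0.20 and 0.87 ± 0.14, of which the first missed the threshold (adjusted p = 0.385). In the class with neither marker the low end of Ido1 lay at the limit of 3 counts. It was 0.0912 CPM in CT26 IgG 24 and 0.123 CPM in CT26 anti-PD-1 40. The median slope of the group was 0.65, 0.69 and 0.54.

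**Figure D2:**
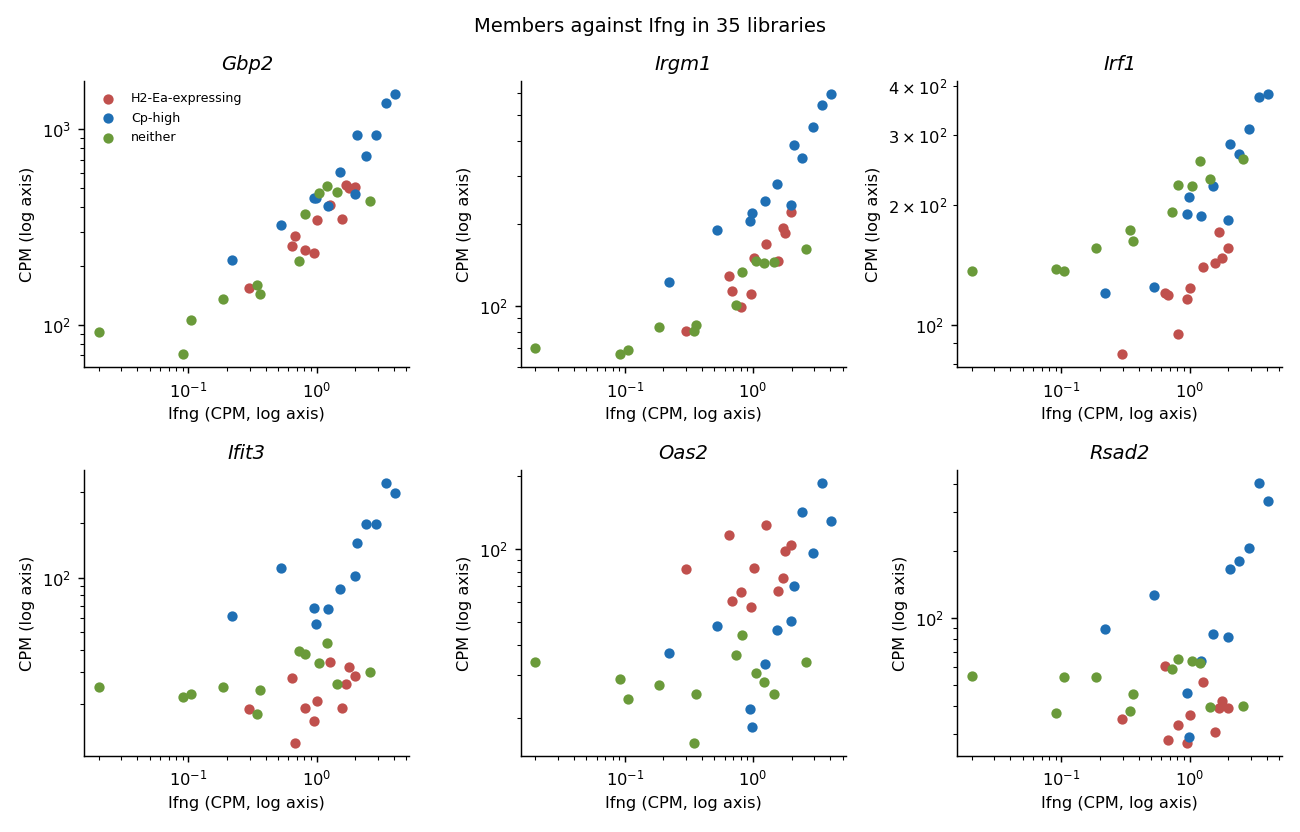
CPM of Gbp2, Irgm1, Irf1, Ifit3, Oas2 and Rsad2 against Ifng CPM (both axes logarithmic) in 35 libraries coloured by class. The library with 0 Ifng counts is drawn at the left edge. Gbp2, Irgm1 and Irf1 climb with Ifng in every class, while Ifit3, Oas2 and Rsad2 climb with it in the Cp-high class.

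The type I type members rose with Ifng in the Cp-high class, where 7 of 9 passed, and in neither of the other classes, where 0 of 9 passed. At an unadjusted edgeR p under 0.05 the other classes gave 1 and 2 of the 9, beside 7.51% and 9.36% of genes. The median slope was 0.58 in the Cp-high class, 0.16 in the H2-Ea-expressing class and 0.09 in the class with neither marker. Oasl2 and Oas2 belong to the oligoadenylate synthetase family, which senses double-stranded RNA. Oasl2 ran from 110 to 517 CPM in the Cp-high class with a slope of 0.58 ± 0.11 (adjusted p = 0.00766), and had slopes of 0.32 ± 0.11 (adjusted p = 0.502) in the H2-Ea-expressing class and 0.17 ± 0.05 (adjusted p = 0.0931) in the remaining class. Oas2 ran from 18.4 to 187 CPM in the Cp-high class with a slope of 0.65 ± 0.17 (adjusted p = 0.0335), against 0.09 ± 0.14 and 0.04 ± 0.06. Ifit3 had a Cp-high slope of 0.63 ± 0.14 (adjusted p = 0.0142). Mx2, an antiviral dynamin-like GTPase annotated as a polymorphic pseudogene, ran from 4.02 to 42.5 CPM in the Cp-high class and its slope of 0.52 ± 0.17 missed the threshold there (adjusted p = 0.0727). Without MC38 anti-CTLA4 8, and likewise without PancO2 anti-PD-1 70, 2 of the 9 type I type members passed in the Cp-high class and 9 of 9 IFN-gamma type members still did. The shares of all genes called in those fits are not reported here.

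Among the regulators, 1 of 6 rose in the H2-Ea-expressing class, 4 of 6 in the Cp-high class and 5 of 6 in the class with neither marker. Irf1, a transcription factor, rose in all 3. It ran from 79.2 to 172 CPM, 120 to 381 CPM and 137 to 262 CPM in class order, with slopes of 0.38 ± 0.05, 0.48 ± 0.06 and 0.22 ± 0.03 (adjusted p = 0.00638, 0.000453 and 0.000201). Irf9, the DNA-binding part of the type I complex, rose in the Cp-high class (0.41 ± 0.05, adjusted p = 0.000881) and in the class with neither marker (0.17 ± 0.03, adjusted p = 0.0106). Irf8, a factor of myeloid and dendritic cells, passed in the class with neither marker (0.24 ± 0.04, adjusted p = 0.00412), where it ran from 42.2 to 122 CPM, and had a slope of 0.27 ± 0.09 (adjusted p = 0.0761) in the Cp-high class. Irf7, which amplifies type I interferon, ran from 36.5 to 436 CPM in the Cp-high class and passed in no class (Cp-high slope 0.59 ± 0.19, adjusted p = 0.0629).

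Of the 4 sensors 0, 3 and 1 rose in edgeR's test, in class order. Zbp1, which binds Z-form nucleic acid, rose in the Cp-high class (0.63 ± 0.11, 70.8 to 381 CPM) and in the class with neither marker (0.31 ± 0.06, 49.6 to 133 CPM). Ifih1 and Dhx58, RNA helicases of the RIG-I family, rose in the Cp-high class with slopes of 0.34 ± 0.10 (adjusted p = 0.0478) and 0.58 ± 0.14 (adjusted p = 0.0237). Ddx58, which encodes RIG-I, had a slope of 0.28 ± 0.09 (adjusted p = 0.059) there. Of the other effectors 0 of 9, 7 of 9 and 1 of 9 rose, the last being Xaf1, a protein linked to apoptosis (0.20 ± 0.04, adjusted p = 0.0188). Rtp4 rose in the Cp-high class with a slope of 0.53 ± 0.11 and Cmpk2 with 0.56 ± 0.15. Rsad2, which encodes the antiviral enzyme viperin, ran from 28.9 to 407 CPM in the Cp-high class (slope 0.58 ± 0.19, adjusted p = 0.0764), and had slopes of 0.03 ± 0.13 and 0.01 ± 0.06 in the H2-Ea-expressing class and the class with neither marker.

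Correlation coefficients were computed beside the slopes. Pearson r with Ifng (log2 CPM) had a median of 0.903, 0.937 and 0.926 over the IFN-gamma type members in the H2-Ea-expressing, Cp-high and remaining class, against medians over all genes of -0.0398, -0.0638 and -0.0256. Over the type I type members the medians were 0.416, 0.703 and 0.451. With 100000 permutations and adjustment over 16322 genes, 0 members passed in the H2-Ea-expressing class, against 0% of genes, 19 of 37 in the Cp-high class, against 3.8%, and 14 of 37 in the class with neither marker, against 1.48%. In the H2-Ea-expressing class 15 members had an unadjusted permutation p under 0.05 and edgeR called 8. The share of all genes at that unadjusted p is not reported here. Spearman's rho passed for 0, 32 and 13 members, against 0, 720 and 207 of 16322 genes with a positive rho. For Gbp2 in the Cp-high class r was 0.935 (permutation p = 2e-05, adjusted p = 0.00466) and rho 0.958 (permutation p = 5e-05), and r was 0.908 without the 2 libraries farthest from the median of Ifng. For Oas2 there r was 0.703 (permutation p = 0.01, adjusted p = 0.0862) and rho 0.825 (permutation p = 0.00159), and r was 0.948 without those 2 libraries, CT26 IgG 28 and PancO2 anti-PD-1 68. These 2 libraries had the lowest Ifng of the class while their Ifit3 was 61.3 and 113 CPM, above the 55.8 CPM of PancO2 anti-CTLA4 58. Without them the median r of the type I type members was 0.963.

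**Figure D3:**
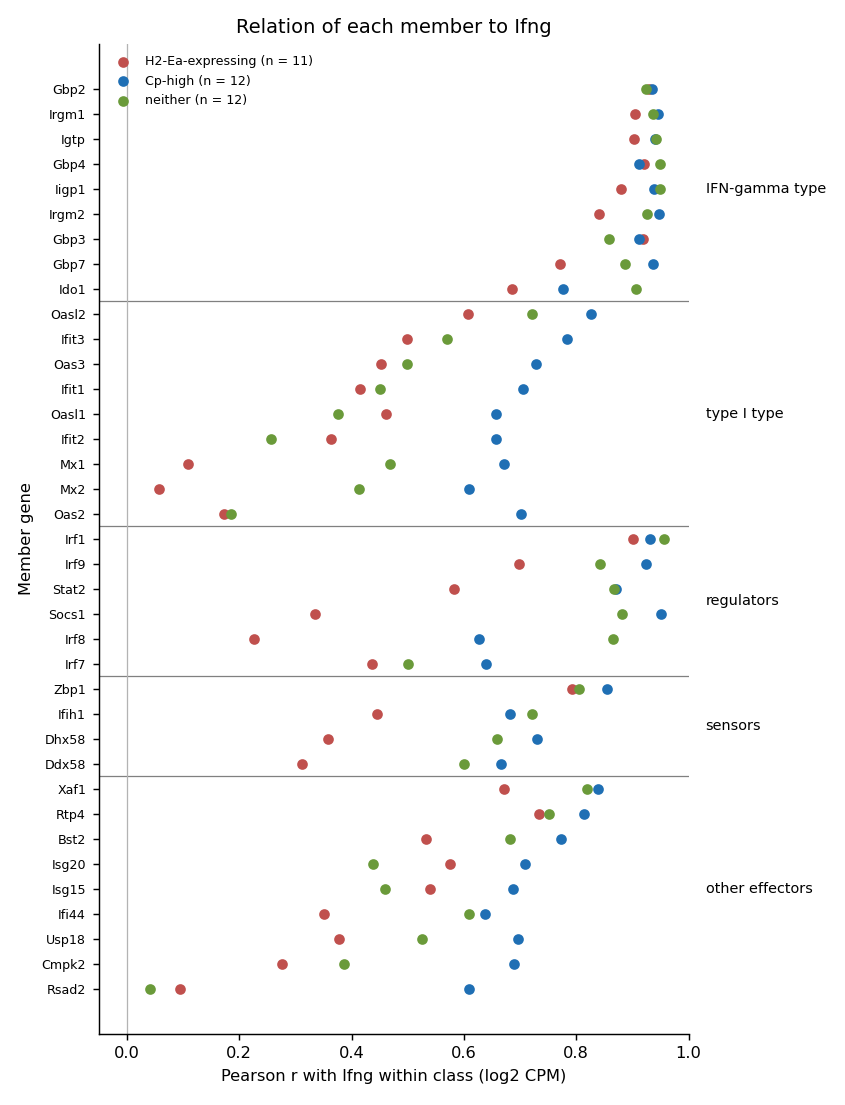
Pearson r with Ifng for each of 37 members within each class (11, 12 and 12 libraries), grouped by role. The IFN-gamma type members lie between 0.686 and 0.949 in all classes, and the type I type members between 0.0577 and 0.827, highest in the Cp-high class.

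The members of 1 group also moved with each other. Over the 36 pairs of IFN-gamma type members the median r was 0.966, 0.973 and 0.965 in class order. Over the 36 pairs of type I type members it was 0.784, 0.968 and 0.775, and over the 81 pairs between the groups 0.595, 0.812 and 0.613. These coefficients share libraries and depth and are given as a description. Without MC38 anti-CTLA4 8 the Cp-high median within the type I type was 0.957.

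Whether a slope itself differed between classes was tested with the interaction of class and Ifng in 35 libraries. In edgeR's test 3 of 37 members passed, against 0.977% of 18628 genes. Socs1, the feedback inhibitor of the Jak kinases, had slopes of 0.14 ± 0.12 in the H2-Ea-expressing class, 0.66 ± 0.06 in the Cp-high class and 0.19 ± 0.04 in the class with neither marker (adjusted p = 0.00671 for the difference). Irf1 (adjusted p = 0.0343) and Irgm1 (adjusted p = 0.0344) were the others, each steepest in the Cp-high class. The differences of all 9 type I type members had an unadjusted edgeR p under 0.05 and 0 of them passed after adjustment (Oas2, adjusted p = 0.103), so their slopes are not shown to differ between classes. How many of all genes reached that unadjusted p is not reported here, so the 9 cannot be set against a background. With PancO2 anti-PD-1 71 kept, 0 members passed. Over single libraries left out, for which shares of all genes are not reported here, the count ran from 1 to 9. It was 1 without MC38 IgG 2, MC38 anti-CTLA4 8, MC38 anti-CTLA4 11, MC38 anti-PD-1 17, MC38 anti-PD-1 18, CT26 IgG 27, CT26 anti-PD-1 40, PancO2 anti-PD-1 64 or PancO2 anti-PD-1 70, and 9 without CT26 IgG 28.

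The rest of the pathway was read from lists of genes that are not members. Of the 7 interferon receptor chains and Jak kinases 0 rose with Ifng in the H2-Ea-expressing class, 3 in the Cp-high class and 0 in the class with neither marker, and 0 fell in any class by edgeR's test. Jak2, a kinase of the interferon gamma receptor, Ifngr2 and Ifnar2 rose in the Cp-high class with slopes of 0.32 ± 0.06, 0.19 ± 0.04 and 0.16 ± 0.03, while Ifngr1 had a slope of -0.04 ± 0.05. Of 35 other interferon-induced genes 9, 30 and 20 rose in class order and 0 fell. Cxcl9, a chemokine that draws T cells, had slopes of 0.62 ± 0.10, 0.67 ± 0.07 and 1.37 ± 0.12, which differed between classes (adjusted p = 0.0118).

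Some markers of other cell types rose with Ifng and some fell. The values of this paragraph leave out PancO2 anti-PD-1 71, whose T cell markers summed to 37.2 CPM and B cell markers to 2.79 CPM. The summed level of 5 T cell markers ran from 13.6 to 35.2 CPM, 36.4 to 116 CPM and 3.92 to 72.8 CPM in class order, and its r with Ifng was 0.816, 0.526 and 0.922. Of the 5 single markers 0, 0 and 4 rose with Ifng in edgeR's test. The sum of 3 natural killer markers had an r of 0.601, 0.902 and 0.754, and of its genes Klrk1, an activating receptor also found on T cells, rose in the Cp-high class (0.57 ± 0.08) and in the class with neither marker (0.56 ± 0.09), while Ncr1 and Klrb1c passed edgeR's test in no class. The sum of 3 cytotoxic genes had an r of 0.326, 0.889 and 0.792. Ptprc, the common leukocyte antigen CD45, had an r of 0.0739, 0.802 and 0.739. Some markers went the opposite way. The endothelial sum had an r of -0.443, -0.784 and -0.602, and in the Cp-high class the endothelial Cdh5 (-0.37 ± 0.08, adjusted p = 0.0126) and the fibroblast gene Pdgfra (-0.29 ± 0.07, adjusted p = 0.0301) fell with Ifng in edgeR's test. The other fibroblast gene, Col1a1, did not pass there (-0.22 ± 0.12, adjusted p = 0.242). The fibroblast sum had an r of -0.0163, -0.585 and -0.154. Further sums differed in sign or size between classes. The macrophage sum had an r of -0.592, 0.19 and -0.518, the neutrophil sum 0.65, 0.0342 and 0.366, the dendritic cell sum 0.59, 0.0945 and 0.623 and the plasmacytoid dendritic cell sum 0.694, -0.205 and 0.175. Of the macrophage genes, Cd68 rose with Ifng in the Cp-high class in edgeR's test (0.17 ± 0.05, adjusted p = 0.0431). Mrc1 had a slope of -0.26 ± 0.13 there and did not pass (adjusted p = 0.219). B cell markers summed to 0.0679 to 0.522 CPM over the 3 classes. The part of these cells in the members' levels was not tested. With Cd8a in place of Ifng, chosen after seeing the data, 0 members rose in the H2-Ea-expressing class, 0 in the Cp-high class and 14 in the class with neither marker. The share of all genes called with Cd8a is not reported here, so these counts cannot be set against a background.

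Ifnb1, the gene of interferon beta, was counted 0 to 96 times in Cp-high libraries and at most 8 times in any other. Its relation to the members was examined in the Cp-high class after these counts had been seen. With Ifnb1 as the only covariate 30 of 37 members rose in edgeR's test, against 3.65% of 16594 genes, including 9 of 9 type I type members, 9 of 9 other effectors, 4 of 4 sensors and 5 of 9 IFN-gamma type members. Without MC38 anti-CTLA4 8, which held 81 of these counts, 0 passed and 36 had an unadjusted edgeR p under 0.05, beside 14.9% of genes. Ifit1 had a slope on Ifnb1 of 0.52 ± 0.08 (adjusted p = 0.00689) and Gbp2 of 0.36 ± 0.10 (adjusted p = 0.0511). By Pearson r with Ifnb1, adjusted over all genes, 21 of 37 members passed the permutation test, against 0.943% of genes. They were 8 of 9 type I type members, 9 of 9 other effectors, 2 of 4 sensors, 2 of 6 regulators and 0 of 9 IFN-gamma type members. By Spearman's rho with Ifnb1 0 of 37 members passed after adjustment (lowest adjusted p = 0.0984, permutation test), against 0 of 16323 genes. At an unadjusted permutation p under 0.05 there were 35 members, and the share of all genes there is not reported here. The Pearson test with Ifng in this class had passed 2 of 9, 3 of 9, 1 of 4, 4 of 6 and 9 of 9 in that order. Mx1, an antiviral GTPase, had an r of 0.884 with Ifnb1 (permutation p = 0.00017, adjusted p = 0.033), a rho of 0.895 (permutation p = 0.00024, adjusted p = 0.0984) and an r of 0.908 without MC38 anti-PD-1 18 and MC38 anti-CTLA4 8. Its r with Ifng was 0.671. Ifng and Ifnb1 were themselves related in the class (r = 0.578, permutation p = 0.0483, adjusted p = 0.0917 over 19 relations, and rho = 0.769, permutation p = 0.00468). Without CT26 IgG 28 and PancO2 anti-PD-1 68 the r of Ifng and Ifnb1 was 0.932.

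With Ifng and Ifnb1 in the same edgeR fit, 13 of 37 members rose with Ifng, 8 of 9 of the IFN-gamma type and 0 of 9 of the type I type, against 1.32% of 17141 genes. After adjustment 0 members and 0% of genes rose with Ifnb1, with 29 members at an unadjusted edgeR p under 0.05, beside 12.3% of genes, among them 9 of 9 type I type and 4 of 9 IFN-gamma type. The median slope of the IFN-gamma type was 0.59 on Ifng and 0.11 on Ifnb1. That of the type I type was 0.27 on Ifng and 0.50 on Ifnb1. Gbp2 had slopes of 0.66 ± 0.11 on Ifng (adjusted p = 0.0117) and 0.10 ± 0.07 on Ifnb1, and Ifit1 of 0.27 ± 0.13 on Ifng and 0.42 ± 0.09 on Ifnb1 (adjusted p = 0.0877).

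**Figure D4:**
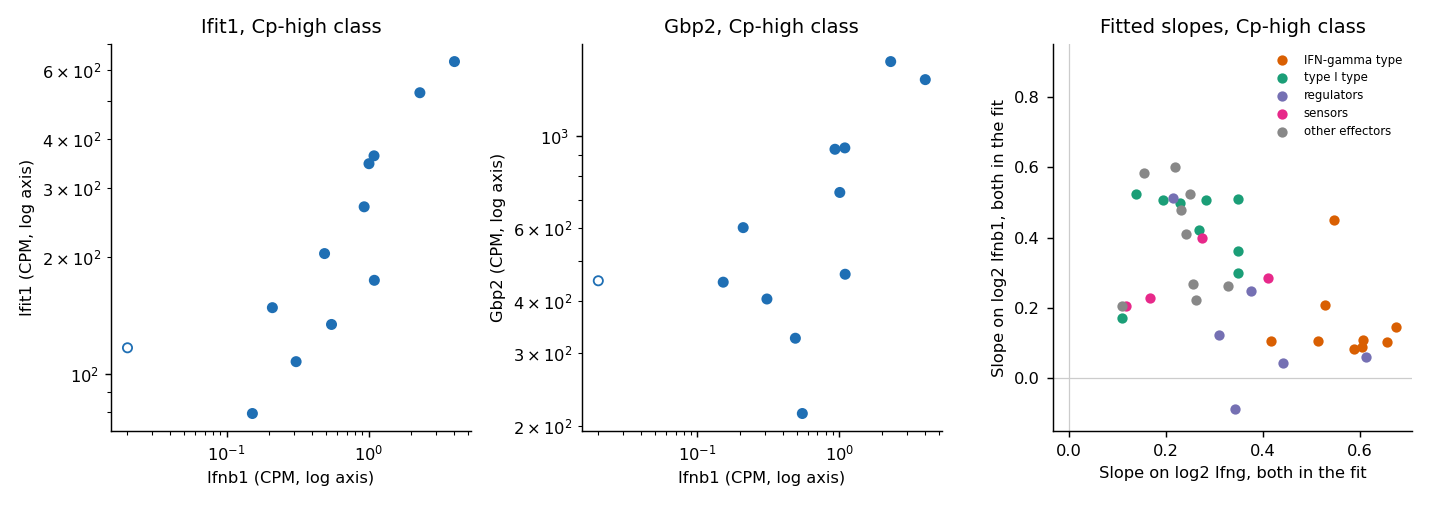
Left and middle, CPM of Ifit1 and Gbp2 against Ifnb1 CPM (both axes logarithmic) in the 12 Cp-high libraries, with the library at 0 Ifnb1 counts open and drawn at the left edge. Right, fitted slopes of the members on log2 Ifng and log2 Ifnb1 when both are in the fit, coloured by role. The IFN-gamma type members sit at the lower right and the type I type members at the upper left.

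Between the labelled groups the members did not pass any test. Because 16 of 36 libraries went against their labelled strain by H2-Ea-ps, these tests cannot decide whether a model or an antibody changed the members. In each of 9 comparisons (3 between models under IgG, and each antibody against IgG within each model) edgeR called 0 of 37 members, against 0% of 16285 to 16510 genes, and limma-voom and DESeq2 called 0 members as well. At an unadjusted edgeR p under 0.05 there were 0 members in 8 comparisons, beside 0.165% to 0.618% of genes. The comparison of anti-PD-1 with IgG in libraries labelled PancO2 had 7 members, each higher under the antibody, beside 5.6% of genes. Among them Ifih1 had a log2 fold change of 0.96 ± 0.28 (SE, adjusted p = 0.798) and Isg15, a ubiquitin-like modifier, of 1.43 ± 0.45 (adjusted p = 0.798). Gbp2 averaged 477 ± 53.5 CPM (SD, n = 4) in PancO2 IgG and 657 ± 578 CPM in PancO2 anti-PD-1. Ifit1 averaged 129 ± 145 CPM in MC38 IgG, 194 ± 291 CPM in MC38 anti-CTLA4 and 143 ± 150 CPM in MC38 anti-PD-1. The differences of these means were smaller than the SD of the antibody group, and every labelled group held libraries of at least 2 classes.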

How the data were processed

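The authors extracted RNA from whole tumours with TRIzol, made poly-A libraries (TruSeq), aligned reads to mm10 with TopHat and Bowtie2 and counted them per gene with HTSeq. The deposited values are raw counts per Ensembl gene and library, with 5 summary lines that took 44.8% to 86.5% of a library's reads and were left out of totals. Strand setting and annotation release were not given in the sources used here. HTSeq drops reads that align to several places, which lowers genes with close copies. Of 37417 rows 32608 had a symbol. Totals ran from 7883106 to 41751023 counts. The limit of 3 counts covers counting error only, whereas each SE and SD also holds the spread between libraries.

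The members, lists, classes and tests were chosen with earlier results of these data known. All 37 matched members could be named. Gbp5, Gbp6 and some further genes of the lists are not reported here. Full values were given for up to 4 members of a group, the 2 with the highest and the 2 with the lowest mean r with Ifng over classes, and further members where a count or a library turned on them. Counts were tested with edgeR 4.0.16 (R 4.3.3) by the quasi-likelihood test with TMM scaling and filterByExpr, and p was adjusted by Benjamini-Hochberg over all genes with a threshold of 0.05. Labelled groups were compared in the 12 libraries labelled IgG or in the 12 of a model. Within a class log2 CPM of Ifng (prior count 2) was the covariate, without PancO2 anti-PD-1 71. Slopes were compared in 35 libraries. Pearson r and Spearman rho had two-sided permutation tests with 100000 resamples, adjusted over all genes tested and not, as first planned, over the members alone. The smallest p these can give is 1e-05. Nothing in the labels ties replicates to separate days or cages, so p-values measure the spread between these libraries. Scripts were tested on simulated counts. Alternatives were DESeq2 1.42.0, limma 3.58.1 (voom), other scaling, filter and prior count, and each library left out in turn.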

Additional observations from a re-analysis of the deposited data

Results flagged for a closer look

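Gbp2 and Ifit1 were examined for a library that stands apart in each of the 9 labelled groups of 4, which makes 18 sets of values, of which chance alone would mark about 0.9. For Ifit1, 3 sets were marked by Dixon's ratio. In MC38 IgG the library 7 had 346 CPM and the others 44.4 to 75.3 CPM. In MC38 anti-CTLA4 the library 8 had 631 CPM and the lowest of the others 41.3 CPM. In CT26 anti-CTLA4 the library 36 had 268 CPM and the others 34.2 to 47.9 CPM. Each of these libraries was in the Cp-high class and the others of its labelled group were not. No set of Gbp2 was marked.

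The Ifng slopes of 3 members differed between the classes by edgeR's interaction test, those of Socs1 (adjusted p = 0.00671), Irf1 (adjusted p = 0.0343) and Irgm1 (adjusted p = 0.0344). The range of each relation also differed, since Ifng ran from 0.299 to 1.99 CPM in the H2-Ea-expressing class, from 0.219 to 4.07 CPM in the Cp-high class and from 0 to 2.60 CPM in the class with neither marker. The part of that difference in range was not tested.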

How the results depend on the processing

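Between labelled groups 0 members were called under each of 162 alternatives, single libraries left out included. For the relation to Ifng, the count of members in the H2-Ea-expressing class (8) was 3 with PancO2 anti-PD-1 71 kept and 0 without the 2 libraries farthest from the median of Ifng, and 5 to 10 with single libraries left out. In the Cp-high class (30) it was 13 with Ifnb1 beside Ifng and 18 to 33 with single libraries left out, and in the class with neither marker (16) 14 to 17. Cd8a in place of Ifng, added after seeing the data, gave 0 in the H2-Ea-expressing class, 0 in the Cp-high class and 14 in the class with neither marker, without a share of all genes beside it. For a different slope between classes (3) the count was 1 with limma-voom, 6 with DESeq2, 6 with prior count 0.5 and 0 with PancO2 anti-PD-1 71 kept, and 1 to 9 with single libraries left out. For Ifnb1 in the Cp-high class (30) it was 0 with Ifng beside it and 0 to 36 with single libraries left out. Where a count of members has no share of all genes beside it or above, that share is not reported here. By permutation of Pearson r the count in the Cp-high class (19) was 36 without the 2 farthest libraries, against 362 of 16322 genes with a positive r. In the class with neither marker (14) it was 7 without the 2 farthest libraries, against 50 of 16322 genes. With prior count 0.5 it was 9 there, against 165 of 16322 genes. The count of members above the class with neither marker in every H2-Ea-expressing library (0) was 1 with TMM-scaled library sizes and 1 without PancO2 anti-PD-1 71. Leaving libraries out changes both their number and which ones remain, and the causes of the changed counts were not tested. Beside single libraries left out, 91 of 106 alternative values were within 1.5 times the reported count and 15 were not. The 91 include every alternative of the comparisons between labelled groups, where 0 members were called throughout. All 15 values outside that limit belonged to the other results. No paired analysis was possible because each mouse number in the labels belongs to 1 library. Ifng rested on 0 to 170 counts and Ifnb1 on 0 to 96, which limits the precision of every relation to them.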
